A study of Drosophila melanogaster with 33 samples.

Results

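The sites described here are the 202 genomic positions that were listed as edited in both Atx2 WT and in both Atx2∆Lsm TRIBE libraries of Drosophila brain, out of 1984 positions listed in any of the 12 TRIBE libraries. They are therefore the edits made by wild-type Atx2 that were still called when the Lsm domain of the protein was missing. They lay in 172 genes by the gene names of the lists. Of the 312 positions common to both Atx2 WT libraries, 110 were not among them, and of the 478 common to both Atx2∆Lsm libraries, 276 were not. The listed edit percents of Atx2 WT and Atx2∆Lsm chose these sites, so values of those 2 forms are given as a description, and tests use only the libraries of other forms and the RNAi libraries.

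Ataxin-2 (Atx2) is a conserved cytoplasmic RNA-binding protein found in stress granules and other RNA-protein assemblies, and its human orthologue carries the polyglutamine tract linked to spinocerebellar ataxia and amyotrophic lateral sclerosis. It has an Lsm domain, an Lsm-associated domain (LsmAD), a PAM2 motif that contacts the poly(A)-binding protein, and intrinsically disordered regions (IDRs), which lack a fixed fold and take part in the condensation of the protein. TRIBE joins such a protein to the catalytic part of ADAR, an enzyme that edits RNA, so that adenosines near the places where the protein meets an mRNA are converted to inosines, which are sequenced as guanosines. An edit percent is the share of reads at a position that carry the change.

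Each of the 6 forms had 2 brain libraries: Atx2 WT, Atx2∆Lsm, Atx2∆LsmAD, Atx2∆mIDR (without the middle IDR), Atx2∆cIDR (without the C-terminal IDR) and Lsm+LsmAD, a fragment made of those domains alone. All were expressed as fusions with the ADAR catalytic domain (ADARcd) and a V5 tag, in neurons under elav-Gal4 with tub-Gal80ts, by shifting adult flies to the warm temperature, on top of the endogenous Atx2 of the fly, which all of these brains kept. Each library was made from several pooled brains, and each transgene was 1 insertion. RNA counts came from brains of Elav Gal4 control flies and of flies with neuronal Ataxin-2 RNAi, and from S2 cells, a Drosophila cell line, treated with double-stranded RNA against GFP (mock) or Ataxin-2, in 3 libraries for each of these 4 groups. The ages of the flies are not in the labels.

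The lists held between 87 positions (Lsm+LsmAD replicate 2) and 940 positions (Atx2∆Lsm replicate 1), each with a percent of at least 15, and no read numbers. A position that is not listed can have been edited below 15%, covered by too few reads, or removed against the control brains, and these cases cannot be told apart. The Atx2 WT libraries differed from those of the other forms in sequencing kit, read length and the keeping of strand, so that any difference between Atx2 WT and another form cannot be told apart from a difference between library types. List length also differed within a form: 396 and 511 positions for Atx2∆LsmAD, and 493 and 286 for Atx2∆mIDR. Counts that rest on 1 of these libraries are given also without it.

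Edit percents of the shared sites ran from 15% to 89.3% over the 4 libraries that chose them. The median site was edited at 24.6% and 23.3% in the Atx2 WT libraries and at 28.6% in each of the Atx2∆Lsm libraries, whereas the other positions of the same lists had medians between 17.9% and 20%. The mean percent was higher in Atx2∆Lsm than in Atx2 WT at 145 sites and lower at 57, with a median difference of 3.95 percentage points. Both Atx2∆Lsm libraries lay above both Atx2 WT libraries at 90 sites (44.6%, which is also the background, since every position listed in all 4 libraries is a shared site), and below them at 23 sites (11.4%). At the remaining 89 sites the libraries overlapped. Replicates of a form differed by a median of 3.33 percentage points in Atx2 WT and 5.10 in Atx2∆Lsm. Across the 202 sites, which share their libraries, the mean percents of the 2 forms had Pearson's r = 0.776 and Spearman's rho = 0.620.

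**Figure D1:**
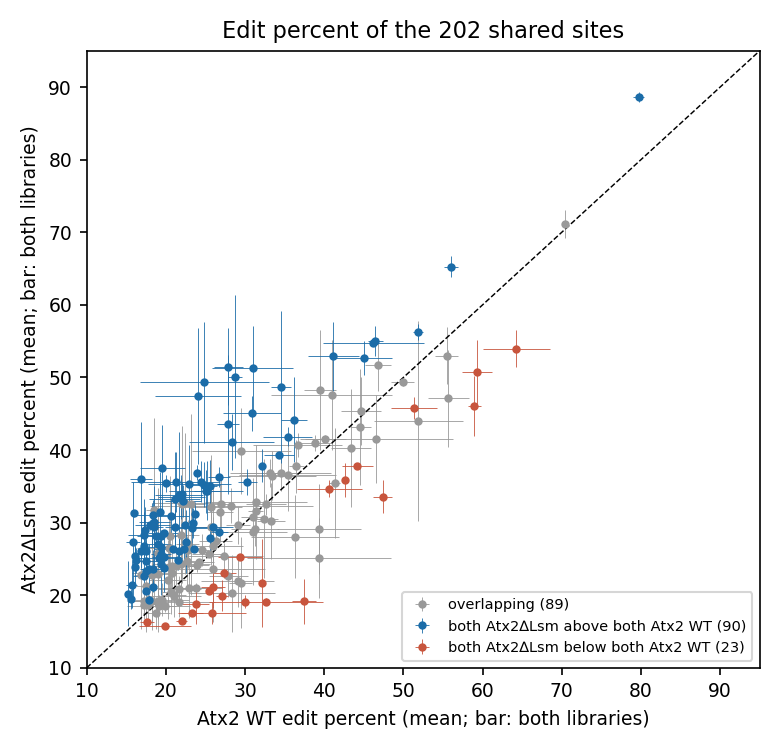
Mean edit percent of each of the 202 shared sites in Atx2 WT (horizontal axis) and Atx2∆Lsm (vertical axis), with bars that reach to both libraries of each form; the dashed line marks equal percents. Both Atx2∆Lsm libraries lay above both Atx2 WT libraries at 90 sites and below them at 23.

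The most strongly edited shared site lay in the 3′UTR of Akh, the adipokinetic hormone that mobilises stored fuel, at 3L:4142020 (positions are 1-based, on build dm6). It was edited at 80.4% and 79.0% in Atx2 WT and at 87.9% and 89.3% in Atx2∆Lsm. Next came the 3′UTR of FMRFa, a neuropeptide precursor, at 2R:9910329, with 70.4% in both Atx2 WT libraries and 69.2% and 73.1% in Atx2∆Lsm. Of the 10 sites with the highest means, 5 lay in the genes of peptides or of the monoamine pathway: those of Akh and FMRFa, one in NPF, which encodes neuropeptide F (3R:16611268, 55.1% and 56.9% in Atx2 WT), one in Mip, which encodes myoinhibitory peptides (3L:17345220, 54.0% and 56.9%), and one in Vmat, the vesicular monoamine transporter (2R:13513578, 68.5% and 60%). The other five lay in CG30158 (at 2 positions), CG12605, the noncoding RNA CR44832 and the spindle checkpoint gene Bub3. The Bub3 site at 3R:29674516 was the only coding position among the 10, with 47.4% and 45.5% in Atx2 WT and 52.9% and 57.1% in Atx2∆Lsm.

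The largest rises from Atx2 WT to Atx2∆Lsm were at Octbeta3R, an octopamine receptor (3R:12512094, 16.7% and 33.0% against 41.0% and 57.7%), Lpin, the lipin phosphatidate phosphatase (2R:8137323, 26.1% and 29.7% against 46.2% and 56.8%), CG42797 (X:9622391, 18.6% and 29.5% against 56.8% and 38.1%), Hs6st, a heparan sulfate sulfotransferase (3R:19929634, 27.9% and 29.6% against 38.9% and 61.3%) and Pallidin (3L:11689960, 36.1% and 25.8% against 57.1% and 45.5%). In each of these 5 the groups of 2 libraries did not overlap, but libraries of 1 form were themselves well apart. The largest falls were at Trissin, a peptide gene (3R:15484787, 35.9% and 38.9% against 22.3% and 16%), a second Vmat position (2R:13514351, 48.4% and 30.2% against 30.6% and 19.6%), CG11000 (3R:5811504, 48.6% and 46.2% against 35.9% and 31.3%), CG12502 (3L:871119, 39.8% and 25.5% against 18.6% and 19.6%) and CG30158 (2R:6920816, 58.1% and 59.8% against 50.2% and 42.0%). At the second Vmat position the libraries of the 2 forms overlapped.

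The rule has an edge at 15%, and 25 sites had at least 1 of the 4 values under 16%. The lowest value, 15%, was found in CG17684 (16.7% and 15% in Atx2 WT, 35.6% and 19.0% in Atx2∆Lsm), Grip163 (20.7% and 17.3%, then 30.8% and 15%) CG34114 (15% and 16.4%, then 24.7% and 18.2%), btsz (22.8% and 33.8%, then 15% and 25.5%) and Traf6 (18.9% and 16.2%, then 15% and 27.6%). A further 146 positions were listed in 3 of the 4 libraries and so fell outside, 49 of them for lack of Atx2∆Lsm replicate 2. Some of these were strongly edited where listed. Another Traf6 position had 34.6%, 46.1% and 60.7%, a Syt12 position 34.6%, 61.1% and 43.6%, and an RpL10 position 45.5%, 45.5% and 41.9%.

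Shared sites lay mostly in 3′UTRs. On the annotation, 156 sites (77.2%) fell in a 3′UTR, 40 (19.8%) in coding sequence, 3 in a 5′UTR (lola, prt and Capa), 2 in the exon of a noncoding RNA (CR44832) and 1 in an intron (bol). Of the common Atx2 WT positions that were not shared, 55.5% were in a 3′UTR and 34.5% in coding sequence, and of the common Atx2∆Lsm positions that were not shared, 56.2% and 37.7%. These are counts of positions, several of which lie in the same mRNA, and the difference was not tested. Within 3′UTRs the median shared site lay 648 nt past the stop codon, at 57.2% of a UTR whose median length was 1359 nt; 27, 39, 48 and 42 sites fell in successive parts of equal length. Median edit percents were 23.8% in 3′UTRs and 22.4% in coding sequence in Atx2 WT.

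Most genes had 1 shared site (146 of 172 genes), 18 had 2, 7 had 3, and Akh had 4. The 35 pairs of neighbouring shared sites in a gene lay 1 to 20699 nt apart, with a median of 109 nt, and 16 pairs were under 100 nt apart. Sites in 1 mRNA were not edited alike. The 4 Akh positions lie close together in its 3′UTR, and in Atx2 WT replicate 1 they had 36.6% (3L:4141911), 17.7% (3L:4141932), 36.2% (3L:4141941) and 80.4% (3L:4142020). The adjacent FMRFa positions 2R:9910328 and 2R:9910329 had 37.9% and 70.4% in that library. In 10 of the 35 pairs both sites were listed in the same number of libraries of each other form.

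Shared sites were listed about as often without the LsmAD as without the middle IDR, and almost never without the C-terminal IDR. Of the 202 sites, the Atx2∆LsmAD libraries listed 116 and 158, the Atx2∆mIDR libraries 167 and 104, the Atx2∆cIDR libraries 11 and 18, and the Lsm+LsmAD libraries 0 and 0. The counts of the first 2 forms interleave, and those of Atx2∆cIDR and Lsm+LsmAD lie below every library of the first 2. Both libraries listed 101 sites (50%) for Atx2∆LsmAD, 99 (49.0%) for Atx2∆mIDR, 7 (3.47%) for Atx2∆cIDR and 0 for Lsm+LsmAD. Over the 588 positions common to Atx2 WT or to Atx2∆Lsm, these shares were 26.4%, 24.7%, 3.4% and 1.53%. At least 1 library listed 173, 172, 22 and 0 of the sites, against 57.3%, 53.9%, 8.5% and 4.93% of the 588 positions. By the two-sided exact permutation test over libraries, Atx2∆LsmAD and Atx2∆mIDR differed by a mean of 1.5 sites (p = 1.0, n = 2 and 2), and each of the other 5 pairs of forms gave p = 0.33 (adjusted p = 0.4 over the 6 pairs, n = 2 and 2), the smallest that 2 libraries against 2 allow. The counts depend on which library is asked: without Atx2∆LsmAD replicate 1 the form listed 158 sites, without Atx2∆mIDR replicate 2 it listed 167, and without replicate 1 or replicate 2 Atx2∆cIDR listed 18 or 11.

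**Figure D2:**
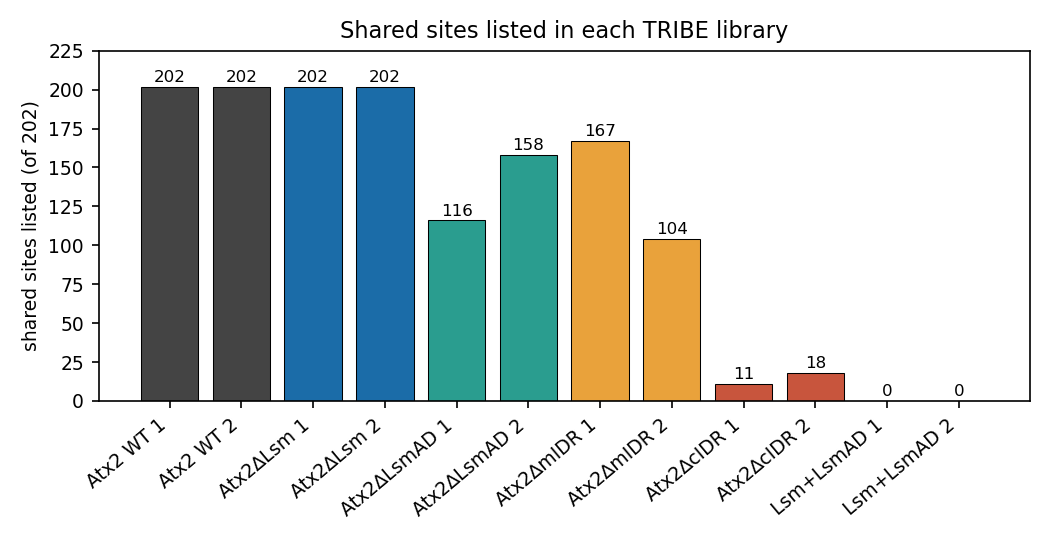
Number of the 202 shared sites listed in each of the 12 TRIBE libraries (bars, from 0), coloured by form, with the replicate number after the name. The 4 libraries of Atx2 WT and Atx2∆Lsm list all 202 by the rule, the Atx2∆LsmAD and Atx2∆mIDR libraries between 104 and 167, the Atx2∆cIDR libraries 11 and 18, and the Lsm+LsmAD libraries 0.

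Sites listed in neither library of a form were counted too, although a site that is not listed need not depend on the missing region. By that count 29 sites (14.4%) were not listed at all without the LsmAD, 30 (14.9%) without the middle IDR, 180 (89.1%) without the C-terminal IDR and all 202 in Lsm+LsmAD. In the same order, the shares were 55.5%, 57.3%, 92.7% and 100% of the 110 unshared positions common to Atx2 WT. Of the 276 unshared positions common to Atx2∆Lsm they were 58.3%, 64.5%, 92.8% and 89.5%. These differences were not tested. Among the shared sites, 13 were in both the 29 and the 30. Another 72 sites for Atx2∆LsmAD and 73 for Atx2∆mIDR were listed in 1 library of 2. Of these, 57 were listed in Atx2∆LsmAD replicate 2 and 15 in replicate 1, whereas 68 were listed in Atx2∆mIDR replicate 1 and 5 in replicate 2, so most of the sites listed once were in the longer list of each form. Positions that Atx2 WT and Atx2∆Lsm did not share were listed in both libraries at these shares, whose difference from the shared sites was not tested: 14.5% of the 110 common to Atx2 WT and 13.8% of the 276 common to Atx2∆Lsm for Atx2∆LsmAD, and 15.5% and 10.5% for Atx2∆mIDR. For Atx2∆cIDR the shares were 1.82% and 3.99%, on either side of that of the shared sites.

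Taking both forms at once, 71 sites (35.1%) were listed in all 8 libraries of Atx2 WT, Atx2∆Lsm, Atx2∆LsmAD and Atx2∆mIDR, 30 in both libraries of Atx2∆LsmAD but not of Atx2∆mIDR, 28 in both of Atx2∆mIDR but not of Atx2∆LsmAD, and 73 in both libraries of neither. The 71 sites had a median Atx2 WT percent of 32.7%, against 19.9% for the 73. Listing in both libraries went with the Atx2 WT percent, a value that the rule used: of the 57 sites under 20% in Atx2 WT, 17.5% were in both Atx2∆LsmAD and 21.1% in both Atx2∆mIDR libraries, of the 86 sites from 20% to under 30%, 50% and 44.2%, and of the 59 sites at 30% or more, 81.4% and 83.1%. For Atx2∆cIDR these shares were 1.75%, 1.16% and 8.47%. Even of the 59 most edited sites, 46 were in no Atx2∆cIDR library.

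**Figure D3:**
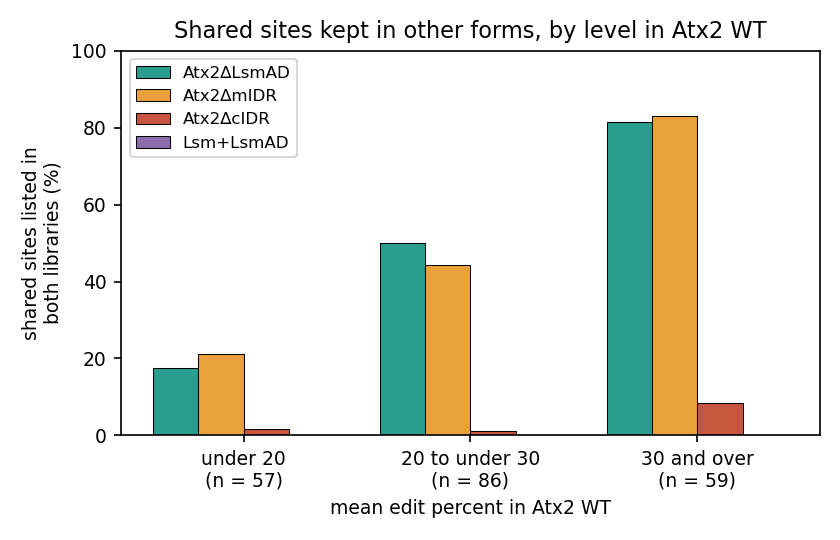
Share of shared sites listed in both libraries of each other form (vertical axis, percent), with the sites grouped by their mean edit percent in Atx2 WT (horizontal axis, 57, 86 and 59 sites). For Atx2∆LsmAD the share is 17.5%, 50% and 81.4%, for Atx2∆mIDR 21.1%, 44.2% and 83.1%, for Atx2∆cIDR at most 8.47%, and for Lsm+LsmAD 0.

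The level of the mRNA moved with listing too. By the Gal4 control brains, genes of sites listed in both Atx2∆LsmAD libraries had a median of 79.1 CPM (counts scaled to the total in genes) per kb of the longest transcript, against 45.6 for sites listed in neither, and the same medians for Atx2∆mIDR were 67.2 and 44.2. For Atx2∆cIDR they were 64.6 over the 7 sites in both libraries and 61.5 over the 180 in neither. The part of mRNA level in these calls was not tested.

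Where a shared site was listed in both libraries of another form, it mostly had a lower percent than in Atx2 WT. The Atx2 WT percents are among the values that chose the sites, and its libraries were of another type. The differences are therefore given as a description. At the 101 sites in both Atx2∆LsmAD libraries the median difference from Atx2 WT was -3.90 percentage points. Both libraries lay below both of Atx2 WT at 40 of them (39.6%; 39.3% over all 117 positions listed in all 4 libraries) and above at 1 (0.990%; background 3.42%). At the 99 sites in both Atx2∆mIDR libraries the difference was -4.50 points, with 36 below (36.4%; background 37.1%) and 3 above (3.03%; background 3.45%). These shares are close to the backgrounds, most of whose positions are shared sites. Replicates differed much within these forms: Atx2∆mIDR replicate 2 was lower than replicate 1 at 89 of 99 sites, by a median of 8.60 points, and Atx2∆LsmAD replicate 2 was higher than replicate 1 at 71 of 101 sites, by 4.10 points. At the 71 sites listed in all 8 libraries the median percents were 34.0% and 32.4% in Atx2 WT, 38.6% and 37.3% in Atx2∆Lsm, 25.5% and 28.7% in Atx2∆LsmAD, and 31.9% and 21.2% in Atx2∆mIDR. The first Atx2∆mIDR library thus lay near Atx2 WT and the second below every other library.

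**Figure D4:**
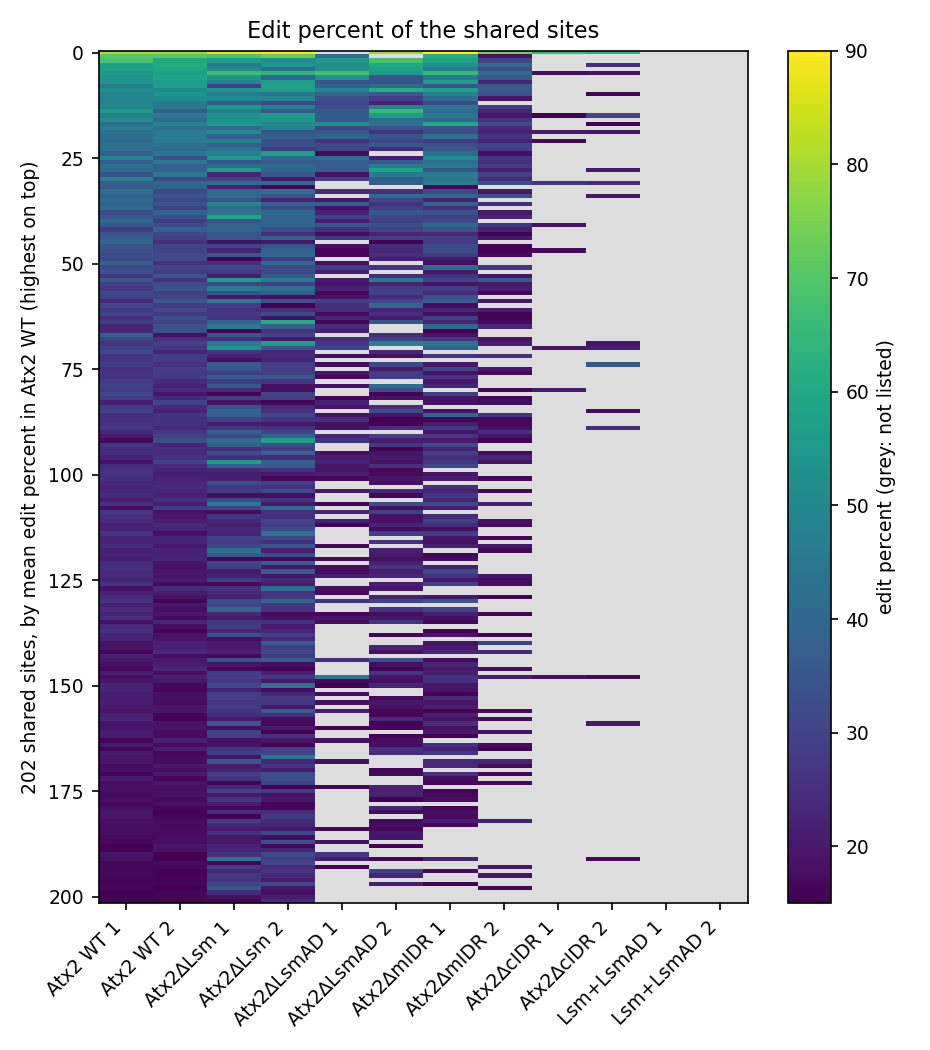
Edit percent of the 202 shared sites (rows, ordered by their mean in Atx2 WT, highest on top) in each of the 12 TRIBE libraries (columns); colour runs from 15% to 90% and grey marks a position that is not listed. Grey is absent from the first 4 columns by the rule, becomes denser down the Atx2∆LsmAD and Atx2∆mIDR columns, and fills nearly all of the Atx2∆cIDR columns and both Lsm+LsmAD columns.

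The 7 shared sites listed in both Atx2∆cIDR libraries were 3 of the 4 in Akh, 1 of the 3 in NPF, and 1 each in Bub3, Ccn (a secreted growth factor-like protein) and CG8814. The Akh site at 3L:4142020 kept 65.2% and 62.2% in Atx2∆cIDR. Its neighbour at 3L:4141911 had 26.8% and 24.6%, against 36.6% and 41.0% in Atx2 WT, and 3L:4141932 had 18.2% and 16.6%, against 17.7% and 21.8%. The NPF site at 3R:16611268 fell further, from 55.1% and 56.9% in Atx2 WT to 17.5% and 18.0% in Atx2∆cIDR. Bub3 had 15% and 30.8%. Ccn (3L:17748778) had 20.3% and 19.6%, against 43.2% and 45.9% in Atx2 WT. CG8814 (2L:2877082) had 18.9% and 21.3%, against 29.3% and 26.5%, although it was listed in only 1 library each of Atx2∆LsmAD and Atx2∆mIDR. Over these 7 sites the median difference from Atx2 WT was -16 points, and both libraries lay below both of Atx2 WT at 6 of 7 (85.7%; 88.9% over the 9 positions that could be compared). A further 15 sites were listed in 1 Atx2∆cIDR library, among them prt, the portabella transporter related to Vmat, at both of its positions (19.6% and 36.1% in replicate 2), a second NPF site (15.2%) and the fourth Akh site (18.6%). In 4 sites, in Akh, NPF, Bub3 and Ccn, the edit was listed in all 10 libraries of Atx2 WT and the 4 deletions.

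No shared site was listed in a Lsm+LsmAD library. Any listed position of a gene was then counted, shared or not, without asking for the same one in both libraries. By that count 2 of the 172 genes had a position in each Lsm+LsmAD library and 4 in at least 1 of them. In Atx2∆cIDR these counts, which include the shared sites, were 7 and 21 genes, in Atx2∆LsmAD 90 and 150, and in Atx2∆mIDR 79 and 146.

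The 13 sites listed only in Atx2 WT and Atx2∆Lsm were weakly edited, with Atx2 WT means between 15.3% and 27.1%. The 5 highest were in CG34394 (2L:3358752, 26.3% and 27.8% in Atx2 WT, 17.8% and 22.1% in Atx2∆Lsm), Kap-alpha1, an importin (3L:19810052, 22.5% and 19.9%, then 31.9% and 26.9%), the ephrin receptor Eph (4:620552, 23.8% and 17.8%, then 28.0% and 20%), Trs23 of the TRAPP trafficking complex (2L:8686454, 21.9% and 19.5%, then 17.4% and 23.4%) and CG6330 (3R:26950159, 22.6% and 17.9%, then 16.7% and 27.6%). The ion transport peptide gene ITP, a list member, was among the other eight, with 15.9% and 16.3%. Trissin had the highest Atx2 WT percents of the 29 sites in no Atx2∆LsmAD library, and a Rab27 position (X:1474134) those of the 30 in no Atx2∆mIDR library. Each form also kept 7 sites in both libraries that the other lacked in both. For Atx2∆LsmAD these were in lola, Drep-3, mam, sbb, CG8602, tub and CG11000, and for Atx2∆mIDR in CG8401, Grip163, roq, Octbeta3R, CG11771, CG34362 and CG15743; both sets were picked out after their values were seen.

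Neuropeptide genes held 22 of the shared sites, in 11 of the 50 genes of that list, and all but the Capa site lay in 3′UTRs. Of the 11 genes, 6 had some listed position in each Atx2∆LsmAD library, 7 in each Atx2∆mIDR library, and 2 (Akh and NPF) in each Atx2∆cIDR library. These counts take any position of the gene, shared or not, and do not ask for the same one in both libraries. The Akh site at 3L:4142020 had 78.7% in Atx2∆LsmAD replicate 2 and was not listed in replicate 1, where the nearby 3L:4141932 had 45.5%, and it had 92.2% and 74.3% in Atx2∆mIDR. The NPF site at 3R:16611268 had 67.9% and 55.7% in Atx2∆LsmAD and 66.2% and 41.8% in Atx2∆mIDR, a spread that takes in both Atx2 WT values. NPF is made in few neurons and acts on feeding. Mip (3L:17345220) had 34.7% and 34.2% in Atx2∆LsmAD, below both Atx2 WT values, and 56.1% and 22.8% in Atx2∆mIDR, of which the first lay between the Atx2 WT values and the second below them. FMRFa (2R:9910329) ranged from 18.4% in Atx2∆mIDR replicate 2 to 62.2% in replicate 1. All 3 sites of Ms, which encodes myosuppressin, were listed in all 8 libraries of the first 4 forms, and 3R:24343598 had 42.2% and 46.1% in Atx2 WT, 37.6% and 38% in Atx2∆Lsm, 38.7% and 34.1% in Atx2∆LsmAD, and 43.4% and 26.6% in Atx2∆mIDR. Among the rest, sNPF (short neuropeptide F) had a site at 48.4% and 45.1% in Atx2 WT that stayed listed in both libraries of both forms, while sites of AstA (allatostatin A), Dh31 (a diuretic hormone), Capa, Trissin and ITP were each missing from at least 1 Atx2∆LsmAD library.

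Genes of peptide processing and dense-core vesicles, the organelles that release such peptides, held 8 sites in 4 genes of 11: IA-2 (a vesicle phosphatase-like protein), Pal2 (a peptide-amidating lyase), svr (a carboxypeptidase) and Rab27. The svr site had 52.6% and 39.8% in Atx2 WT and was listed in every Atx2∆LsmAD and Atx2∆mIDR library, between 26.6% and 42.2%. The 3 Rab27 sites were all in coding sequence and were absent from Atx2∆LsmAD replicate 1. Monoamine transporters and synthesis enzymes held 6 sites in 3 genes of 12. The Vmat site at 2R:13513578 had 55.3% and 68.1% in Atx2∆LsmAD and 58.1% and 30.3% in Atx2∆mIDR, and that at 2R:13513763 had 42.8% and 37.6% in Atx2 WT, 42.1% and 41.0% in Atx2∆Lsm, 37.3% and 46.0% in Atx2∆LsmAD, and 45.9% and 28.0% in Atx2∆mIDR, the last being the lowest. No Vmat site was listed in Atx2∆cIDR. Trh, a tryptophan hydroxylase of serotonin synthesis, had 1 site, listed in all 8 libraries of the first 4 forms. The monoamine receptors Octbeta3R and Dop1R2 (a dopamine receptor) held 3 sites.

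Of the genes for acetylcholine, GABA and glutamate signalling, 3 of 30 held 5 sites: Ace, the acetylcholinesterase, Cha, the choline acetyltransferase, and CG7708. All 3 Ace sites, in its 3′UTR, and the coding site of Cha were listed in all 8 libraries, and Ace 3R:13227971 had 42.6% and 42.7% in Atx2 WT and between 30.6% and 36.0% in the Atx2∆LsmAD and Atx2∆mIDR libraries. Calcium, cAMP and G protein signalling had 8 sites in 5 genes of 22: Cbp53E (the calbindin homologue), dnc (a cAMP phosphodiesterase), Ggamma30A (a G protein gamma subunit) and the calcineurin genes CanB and Pp2B-14D. The dnc coding site at X:3321069 was also in 1 Atx2∆cIDR library (17.3%). The adhesion genes Ten-a, Dscam4, beat-IIIc and beat-Vc, which guide neurites, had 1 site each, all in every library of Atx2∆LsmAD and Atx2∆mIDR. The list of RNA regulators had 6 sites in 6 genes of 29 (bol, fne, Rbp9, heph, mei-P26 and vig). That of kinases, phosphatases and their partners had 6 sites in 4 genes of 16. Among these, 14-3-3epsilon, which encodes an adaptor protein of signalling pathways, had 41.9% and 30.8% in Atx2 WT, 33.8% and 22.4% in Atx2∆Lsm, 20.1% and 31.0% in Atx2∆LsmAD and 21.9% in 1 Atx2∆mIDR library at 3R:18249736. No gene of the 25 listed voltage-gated channels and subunits had a shared site. The lists do not hold every gene of a class, so these counts cover listed genes only. Left out, for example, were the potassium channel gene Shawl, the RNA-binding Unr, Hrb98DE and roq, and the kinases or phosphatases Src42A, Pkc53E and Ptp99A. Each of these had 1 shared site. Genes with 3 shared sites and outside these lists were CG30158, whose sites were in every Atx2∆LsmAD and Atx2∆mIDR library, and CG34362, whose sites had at most 29.4% in any library.

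Whether mRNAs with a shared site differed between Atx2 RNAi and control was asked in the RNAi experiments, whose libraries the rule did not use. Depth was between 11169973 and 16108727 counts in genes per library. Atx2 itself had 287, 302 and 316 CPM in the Gal4 control brains and 201, 252 and 264 CPM in the Atx2 RNAi brains, groups that did not overlap, but the log2 fold change of -0.34 ± 0.12 (SE) did not pass the test (edgeR, adjusted p = 0.0584). In S2 cells Atx2 went against the label: 228, 226 and 232 CPM in mock libraries and 1002, 686 and 841 CPM in the libraries labelled Atx2 RNAi (log2 fold change 1.88 ± 0.09, adjusted p = 5.3e-11 by edgeR). Directions in S2 cells therefore refer to libraries labelled Atx2 RNAi, in which Atx2 counts were higher; Atx2 protein was not analysed here.

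In brain, many more mRNAs with a shared site were lower than higher in Atx2 RNAi. Of the 172 genes, 163 were tested; 70 (42.9%) were lower and 14 (8.59%) higher at adjusted p under 0.05 by edgeR, against 18.6% and 23.1% of all 9197 genes tested. The median log2 fold change was -0.28 over these genes and 0.06 over all genes tested. All 3 RNAi libraries lay below all 3 controls for 89 of the 163 genes and above them for 23, against 25.4% and 32.3% of all genes tested. The 9 genes not tested (lmgA, lmgB, CG34140, Mkp, CG11768, CG34135, CG42487, CG4884 and CG45088) had at most 5 counts in any library, and their 5 sites lie in overlapping genes. Other positions' genes gave shares in between: 34.5% lower and 9.52% higher of the 84 genes with common Atx2 WT positions and no shared site, and 36.9% and 15.2% of the 217 tested for Atx2∆Lsm. Genes with a shared site were also expressed more than most, with a median of 49.2 CPM per kb in control brains against 12.4 over all genes tested. Scaled by library size alone, 46 genes were lower and 28 higher, with a median of 0.27 over all genes. The median of these genes relative to all genes was -0.35 under TMM, upper-quartile, DESeq2 and library size scaling. Scaling shifts the changes of all genes nearly alike, so this value could hardly differ and does not bear on the number of calls.

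Cell type markers moved with the RNAi group as well. The summed level of 7 fat body markers was 473 to 1318 CPM in the control brains and 10079 to 22872 CPM in the RNAi brains, with 5 of 7 higher and 1 lower. That of 7 neuron markers was 14900 to 18780 CPM against 8450 to 11227 CPM, with 5 lower, and that of 5 muscle markers was 269 to 299 CPM against 59.5 to 81.4 CPM, with all 5 lower. Glia markers summed to 4439 to 5218 CPM against 3234 to 3843 CPM, with 3 of 6 lower and 1 higher. Of the 4 photoreceptor and 4 hemocyte markers 2 each were higher, and their sums overlapped between groups. No marker of these lists was at 0 in brain. In such bulk samples, fewer cells of a type and less RNA per cell cannot be told apart, and the part of these markers in the result was not tested. Gal4 control replicate 1 stood apart, with 34.6% of its counts outside genes (15.8% to 17.7% in the other brain libraries); without it, 71 of the genes fell and 13 rose, and 63 and 12 of these calls were shared with the full set of libraries.

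Within these genes, those with a site in a 3′UTR were lower in 60 of 122 tested (49.2%), and those with coding sites alone in 8 of 36 (22.2%), near the background of 18.6%; the difference was not tested. Genes with a site in both Atx2∆LsmAD and both Atx2∆mIDR libraries were lower in 26 of 57 (45.6%), and genes with no site in both libraries of another form in 26 of 61 (42.6%); this difference was not tested either.

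The largest fall was that of Cbp53E, with 1283, 1501 and 1494 CPM in controls and 556, 544 and 584 CPM in RNAi brains (log2 fold change -1.35 ± 0.11, adjusted p = 0.000381, edgeR). All 5 genes of calcium, cAMP and G protein signalling fell, among them Ggamma30A (-1.01 ± 0.15), dnc (-0.47 ± 0.10) and CanB (-0.41 ± 0.09); of that whole list, 18 of 21 tested genes fell. Vmat had 1854, 1331 and 1736 CPM in controls and 650, 788 and 907 CPM in RNAi brains, without overlap (-1.07 ± 0.18, adjusted p = 0.00363, edgeR). Its relative prt fell as well (-0.77 ± 0.12), and Trh had -0.20 ± 0.12 and was not called; of that whole list 6 of 12 fell and 1 rose. Ace (-0.67 ± 0.16), Cha (-0.83 ± 0.13) and CG7708 (-0.996 ± 0.11) all fell, in a list of which 27 of 30 fell. So did both monoamine receptors, in a list of which 14 of 16 fell, and Ten-a, beat-Vc and beat-IIIc, in a list of which 22 of 27 fell. Most of the genes counted in these falls have no shared site.

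**Figure D5:**
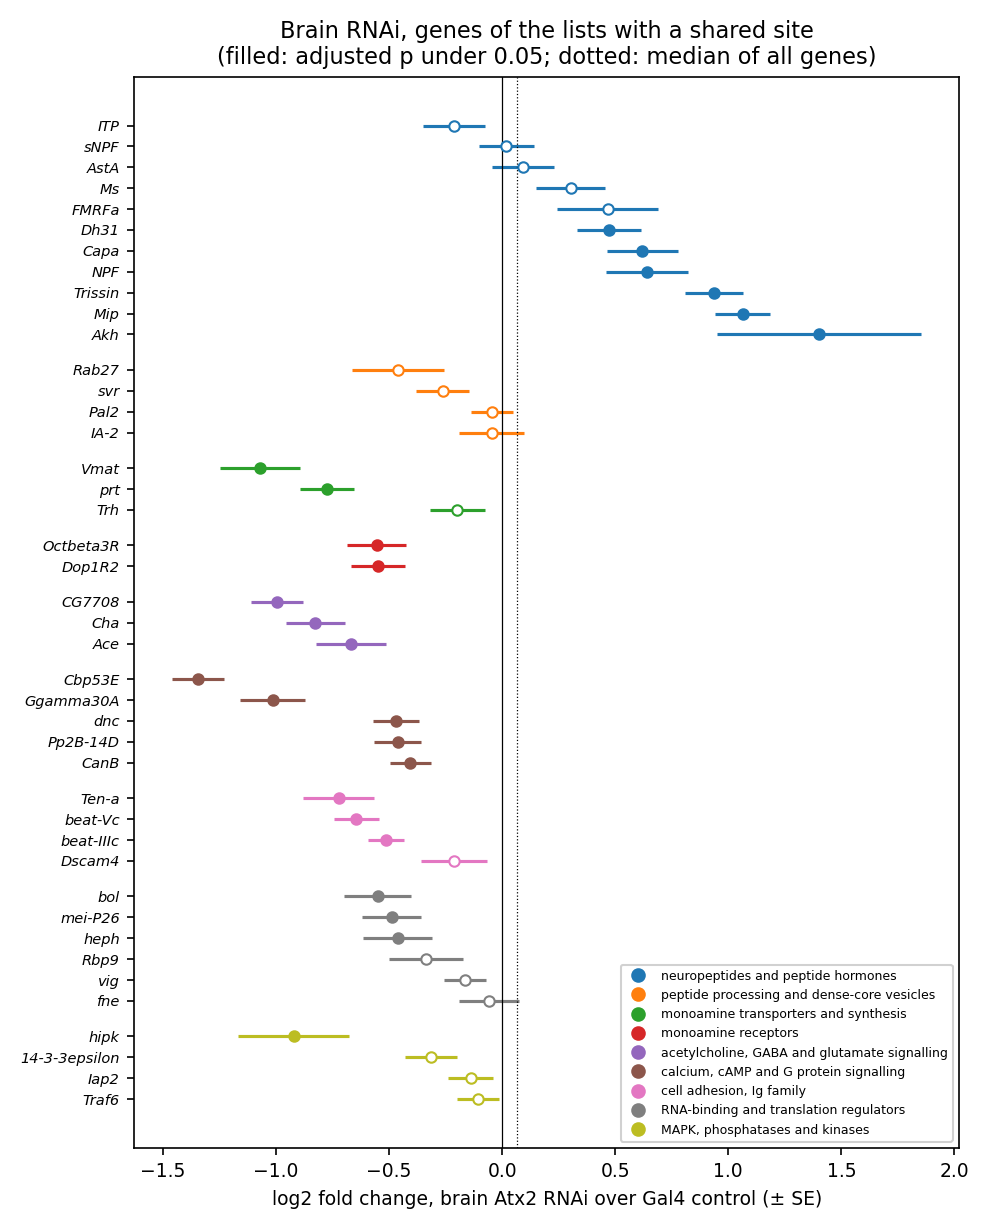
Log2 fold change (Atx2 RNAi over Gal4 control brains, 3 libraries each, ± SE) of each gene of the lists with a shared site, grouped and coloured by list; filled points have adjusted p under 0.05 by edgeR and the dotted line is the median of all genes tested (0.06). Of 11 peptide genes, 6 were called higher, and all 5 genes of calcium, cAMP and G protein signalling were called lower.

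Of the 11 neuropeptide genes with a shared site, 6 rose, and of the 39 tested in the whole list 20 rose and 4 fell. Mip had 55.8, 70.5 and 73.9 CPM in controls and 142, 132 and 144 CPM in RNAi brains (1.06 ± 0.12, adjusted p = 0.000916, edgeR), with no overlap. Trissin rose without overlap too (0.94 ± 0.13), as did Capa (0.62 ± 0.16), NPF (0.64 ± 0.18) and Dh31 (0.47 ± 0.14). Akh had 30.6, 45.9 and 27.4 CPM in controls and 154, 39.5 and 81.9 CPM in RNAi brains; its groups overlapped and its call (1.40 ± 0.45, adjusted p = 0.0396, edgeR) was lost without Atx2 RNAi replicate 1 (0.81, adjusted p = 0.133), without Atx2 RNAi replicate 3 (1.48, adjusted p = 0.0714), without Gal4 control replicate 1 (1.30, adjusted p = 0.0959) and without Gal4 control replicate 3 (1.26, adjusted p = 0.113). FMRFa (0.47 ± 0.22), Ms (0.30 ± 0.15), AstA (0.09 ± 0.14), sNPF (0.02 ± 0.12) and ITP (-0.21 ± 0.14) did not pass. Other shared-site genes that rose were RpS10b and RpL19, which encode ribosomal proteins, CR44832, CG8401, Cyp1, Kap-alpha1, CG15743 and CG8814. RpS10b rose most of these, from 255, 240 and 188 CPM to 646, 507 and 574 CPM (1.34 ± 0.15).

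The 4 peptide processing genes with a shared site did not pass the test: Rab27 had -0.46 ± 0.20, svr -0.26 ± 0.12, Pal2 -0.05 ± 0.09 and IA-2 -0.05 ± 0.14, whereas 5 of the 11 genes of that list fell. Of the RNA regulators, bol, heph and mei-P26 fell by 0.46 to 0.55 on the log2 scale, and fne (-0.06 ± 0.13), Rbp9 (-0.34 ± 0.16) and vig (-0.16 ± 0.09) did not pass. In that whole list 11 of 29 tested genes fell and 4 rose. Of the kinase and phosphatase group, hipk, a homeodomain-interacting protein kinase, fell (-0.92 ± 0.24, adjusted p = 0.0201, edgeR). The gene 14-3-3epsilon had 1430, 1269 and 1305 CPM in controls and 987, 1076 and 1156 CPM in RNAi brains. Its groups did not overlap but it did not pass (-0.31 ± 0.12, adjusted p = 0.0635, edgeR). In that whole list 6 of 16 tested genes fell. Of the genes outside the lists, CG17684 (-1.23 ± 0.20), CG8641 (-1.06 ± 0.09), nrv3, a sodium pump subunit (-0.93 ± 0.13), CG34362 (-0.80 ± 0.11) and CG30158 (-0.55 ± 0.09) fell.

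In S2 cells, 66 of the 172 genes were not tested, since genes such as Akh, NPF, Vmat, Mip and Ace had at most 14 counts in any library. Of the 106 tested, 20 (18.9%) were lower and 5 (4.72%) higher in the libraries labelled Atx2 RNAi by edgeR at adjusted p under 0.05, against 14.7% and 14.4% of all 7567 genes tested. The median log2 fold change was -0.01 over these genes and 0.01 over all genes, and the changes of these genes ran from -0.48 to 0.52. The gene sty, which encodes Sprouty, an inhibitor of receptor tyrosine kinase signalling, had 1671, 1682 and 1649 CPM in mock and 1336, 1432 and 1288 CPM in the libraries labelled Atx2 RNAi (-0.30 ± 0.04, adjusted p = 5.2e-05, edgeR). The kinase gene hipk was lower without overlap too (-0.39 ± 0.06), as were CG11638 (-0.48 ± 0.14), sick (-0.30 ± 0.09), ITP (-0.24 ± 0.05), CG6330 (-0.23 ± 0.06), CTPsyn, the CTP synthase (-0.20 ± 0.05), Hrb98DE, an hnRNP (-0.20 ± 0.04), vig (-0.19 ± 0.04) and svr (-0.16 ± 0.04). All 3 libraries lay below all 3 mock libraries for 37 of the 106 genes and above for 13, against 22.0% and 21.8% of all genes tested. Higher were CG3078 (0.51 ± 0.15), Den1 (0.27 ± 0.06), RpS10b (0.19 ± 0.04), dbo (0.18 ± 0.05) and RpL19 (0.15 ± 0.04), of which dbo and RpL19 are named to complete the count. Under upper-quartile scaling 18 genes were lower and 10 higher. Of the 70 genes called lower in brain, 6 were also called lower in S2 cells and 1 higher, 31 were not called and 32 were not tested. Over all genes tested in S2 cells, 14.7% were called lower and 14.4% higher. Whether the 2 experiments share calls was not tested.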

How the data were processed

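TRIBE edit sites were called by the authors from poly(A)-enriched brain RNA aligned to dm6, with TopHat2 among the tools in their processing notes, and deposited as lists of positions with an edit percent of at least 15. Read numbers per site are not in the lists, so that depth at a site is unknown. Some percents carry more than 1 decimal, which the sources used here do not explain. RNAi libraries were aligned with STAR and counted with HTSeq by the authors, and the deposited values are read counts per gene. Summary entries that name no gene took 13.5% to 34.6% of counts and were left out. Depth was 11169973 to 16108727 counts in genes. TRIBE control brains, TRIBE in S2 cells and untransfected S2 cells were not analysed here (9 of 33 samples).

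Sites were matched by chromosome and end position (1-based), and located on the Ensembl release 115 annotation, in which 3′UTR took precedence over coding sequence. Members, gene lists and tests were chosen with earlier results of these data known. Counts were tested within brain and within S2 cells with edgeR 4.0.16 (filterByExpr with a minimum count of 10, TMM scaling, quasi-likelihood test, Benjamini-Hochberg adjustment over all genes tested, threshold 0.05) in R 4.3.3. CPM were scaled, within brain and within S2 cells, to each library's counts in the tested genes times its TMM factor. Marker sums and overlaps between groups use these values and so carry that scaling. They were not computed with library size alone. Alternatives were DESeq2 1.42.0, other scalings, no filter, the replicate block, each library left out, and, for sites, minimums of 20% and 30%. Numbers of listed sites were compared by an exact permutation test over libraries (Python 3.11.15, scipy 1.17.1). The edgeR test within brain and within S2 cells was tried on simulated counts with 200 changed genes, and the matching of sites on planted positions. The permutation test and the joint fit of brain and S2 cells were not tried on simulated data. The study describes its replicates as biological or independent, and the labels do not say which cultures or crosses they came from; p-values measure the spread between these samples.

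Sites named were the 10 with the highest mean in the 4 libraries of the rule, the 5 largest rises and falls, those in both Atx2∆cIDR libraries, the 5 highest in no other form, genes with 3 or more sites, the sites at the lowest value and 3 just outside the rule's edge, and those outside 3′UTRs and coding sequence; genes named were the 10 largest called changes without overlap in each RNAi experiment, list members, Akh, Vmat, 14-3-3epsilon and Atx2. Others are given as examples or counts and were chosen after their values were seen.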

Additional observations from a re-analysis of the deposited data

Results flagged for a closer look

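The RNAi change of a gene in brain and in S2 cells was compared by the interaction term of 1 edgeR quasi-likelihood fit over both sources, chosen after seeing the data, with Benjamini-Hochberg adjustment over 7019 genes. It passed for 53 of the 106 genes with a shared site tested there (50%), against 37.9% of all genes. Brain and S2 libraries differ in source and in how Atx2 was targeted, and Atx2 counts in S2 cells went against the label. The sizes below are therefore differences between these experiments (S2 minus brain, log2). They come from the joint fit, which scaled brain and S2 libraries together, and lie above the differences of the separately fitted changes. For 14-3-3epsilon the separate changes were -0.31 in brain and -0.05 in S2 cells, and the joint size was 0.38. For Unr they were -0.02 and -0.08, and the joint size was 0.04. The part of this scaling in the number of genes that passed was not tested. Among the named genes, Atx2 itself differed by 2.33 (adjusted p = 3.61e-06).

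Genes that were lower in brain and nearer to 0 or above it in S2 cells were nrv3 (1.03), Ten-a (0.93), Rab27 (0.68), dnc (0.65), CG6330 (0.64), heph (0.57), mei-P26 (0.51), Pp2B-14D (0.49), 14-3-3epsilon (0.38), Traf6 (0.37) and Iap2 (0.31). Of these, Rab27, 14-3-3epsilon, Traf6 and Iap2 passed the test in neither experiment alone. CG3078 (0.76) and Den1 (0.47) were called higher in S2 cells and were not called in brain. RpS10b rose in both, by less in S2 cells (-1.04).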

How the results depend on the processing

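Requiring at least 20% or 30% in all 4 libraries left 100 or 38 shared sites, and listing in at least 1 of 2 libraries of each form gave 442; leaving out 1 library gave 222 to 251. Of the 100 sites at 20% or more, both libraries listed 44 (Atx2∆LsmAD), 45 (Atx2∆mIDR) and 2 (Atx2∆cIDR) at that minimum. Of all 202 sites, at least 1 library listed 173, 172 and 22, and with 1 library left out the counts were 116 to 158, 104 to 167 and 11 to 18. Counted as genes with any position, Lsm+LsmAD had 2 in place of 0. The median difference of Atx2∆Lsm from Atx2 WT stayed between 2.91 and 4.73 points with 1 library left out.

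In brain, library size alone gave 46 lower and 28 higher genes (62.2% lower among those called, against 83.3%). With 1 library left out, 53 to 71 were lower and 8 to 13 higher. The number higher fell to 9 without Atx2 RNAi replicate 1, to 8 without Atx2 RNAi replicate 3 and to 9 without Gal4 control replicate 3. In S2 cells, DESeq2 gave 3 higher and upper-quartile scaling 10, and leaving out 1 library gave 16 to 25 lower and 3 to 7 higher, the fewest higher without Atx2 RNAi replicate 2 or mock replicate 3. At unadjusted p, 39 of the 106 S2 genes passed, 30 lower and 9 higher, against 20.1% and 20.7% of all genes tested. The brain and S2 replicate numbers did not pair the samples: correlations of deviations were -0.09, -0.20 and -0.04 in brain and 0.06, -0.08 and -0.07 in S2 cells, and the replicate block gave 64 genes called in brain and 24 in S2 cells. No paired fit was made of the TRIBE counts, which were compared by the permutation test over libraries. Sequence motifs were not run, since no genome sequence was used.

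Of the named genes' values under alternatives, 616 kept direction and side of the threshold, 48 lost the call, 11 gained one and 18 changed sign, all of them brain values, in 10 genes that were not called in brain. With library size alone these were ITP (0.000875), IA-2 (0.162), Iap2 (0.0678), Pal2 (0.162), Traf6 (0.105), Trh (0.00712), fne (0.156) and vig (0.0462). Upper-quartile scaling gave IA-2 0.0198, Pal2 0.0216 and fne 0.00899, and DESeq2 gave sNPF -0.0409. With 1 library left out, AstA ran from -0.0166 to 0.173, IA-2 from -0.0880 to 0.0396, fne from -0.129 to 0.0361 and sNPF from -0.0642 to 0.125.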
